A study of Mus musculus with 58 samples.

Results

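The muscle studied was the extensor digitorum longus (EDL), a hindlimb muscle of mostly fast-twitch fibres, and the comparison was between untrained tumour bearing mice (T, 6 mice) and untrained control mice (C, 6 mice). Every mouse was a male CD2F1 animal (a BALB/c by DBA/2 cross) and none of these 12 had whole-body vibration (WBV) training. T mice received living cells of C26, a murine adenocarcinoma line, under the skin of the right groin, and C mice received a sham injection of the carrier solution HBSS. Muscles were collected at day 19 after the injection. Each EDL was divided into a part for histology and a part for RNA. Each array holds total RNA from the latter part of 1 EDL of 1 mouse, so that n counts mice. The 12 arrays compared belong to a set of 58, of which 23 are EDL arrays. T and C were compared across 18820 genes, each being a gene symbol held alone by at least 1 probe set. All tumours came from 1 cell line and the muscles from 1 time point. A piece of muscle holds fibres together with vessel, nerve, matrix and blood cells, and where each EDL was cut is not given.

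Cachexia is the loss of muscle and fat that accompanies some tumours, and in mice the C26 tumour is a standard model of it. Circulating cytokines and glucocorticoids reach the muscle fibre, where the JAK-STAT and FoxO pathways switch on ubiquitin ligases and autophagy genes that direct contractile proteins to the proteasome and the lysosome. Fast fibres, which burn glycogen and depend on a dense calcium release apparatus, are known to lose more mass in this setting than slow fibres.

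The labelled tissue was checked against its markers. All 10 fast fibre markers lay above the median level of all genes in both groups, and their mean level was 11.84 to 12.44 in T and 12.47 to 12.56 in C on the log2 scale of the arrays. The 8 slow fibre markers averaged 6.36 to 8.30 in T and 6.68 to 8.28 in C. Of 9 markers of epithelium and carcinoma, none lay above the median level in either group. These values are those of a fast muscle in all 12 arrays. Markers of some other cells moved with the groups, though with overlapping ranges: 11 macrophage markers averaged 5.54 to 6.25 in T and 5.11 to 5.61 in C (4 higher), 11 neutrophil markers averaged 3.38 to 4.32 in T and 3.12 to 3.44 in C (4 higher), and 7 tendon cell markers averaged 5.65 to 7.64 in T and 7.25 to 8.34 in C (3 lower). The 6 satellite cell markers averaged 5.60 to 5.77 in T and 5.38 to 5.57 in C, without overlap, and 1 of them was higher. The 10 endothelial markers averaged 7.45 to 7.81 in T and 7.47 to 7.64 in C (3 higher, 1 lower). In whole tissue, fewer cells of a type and less RNA per cell cannot be told apart.

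One T array stood apart. Over the genes that differed between T and C, T replicate 3 carried a median of 42.3% of the mean change, against 101% to 130% in the other 5 T arrays, and it was the T array nearest to C in 77.3% of those genes. The same mouse had kept 91% of its starting body mass, against 77.5% to 82.6% in the other 5 T mice. Without it the number of genes that differed was 4813 in place of 4209.

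The difference between T and C spread over a large part of the genome and was mostly small. At an adjusted p below 0.01 in limma, with Benjamini-Hochberg adjustment over all genes, 4209 of 18820 genes differed (22.4%), of which 2020 were higher (10.7%) and 2189 lower (11.6%) in T. The median size of these changes was 0.58 on the log2 scale and 83.5% of them were below 2-fold; 693 genes (3.68%) passed 2-fold. Changes of 0.5 to 1 were the most common class with 1941 genes, 1521 genes changed by 0.25 to 0.5, and 18 changed by more than 3. The groups did not overlap in 2906 genes (15.4%), with all T arrays above all C arrays in 7.05% of genes and all below in 8.39%.

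The share of genes called followed the brightness of their probe sets. Above the median level 40.3% of genes differed (19.7% higher, 20.6% lower) and at or below it 4.41% did. Of the 1882 genes with the brightest probe sets 24.5% were higher and 30.6% lower in T, whereas of the 1882 dimmest 1 gene was higher and 12 were lower. For gene lists whose members lie mostly above the median level, counts of both directions together are to be read against 40.3% rather than 22.4%. Counts of 1 direction in such lists are to be read against 19.7% higher or 20.6% lower. Exceptions include the acute phase proteins, with 5 of 21 above the median level, the chemokines and their receptors, with 9 of 52, and the neutrophil markers, with 0 of 11. Lists whose total share was near or below 40.3% include the nerve-muscle junction (33.3%), the Wnt genes (33.3%) and the ubiquitin, E1 and E2 genes (41.7%). The median change over all 18820 genes was -0.03.

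**Figure D1:**
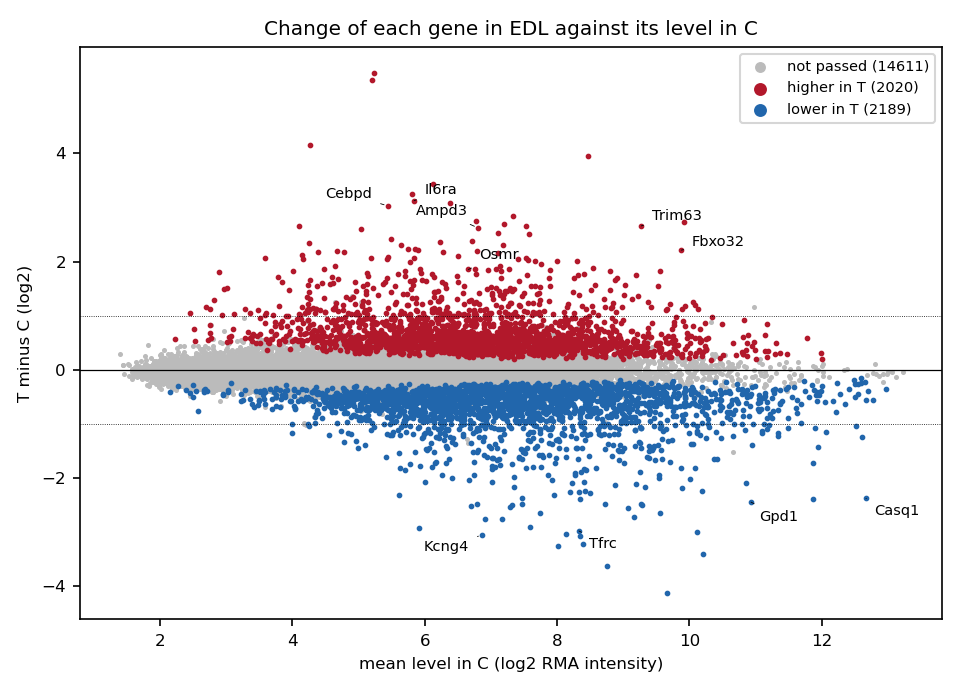
Each point is 1 of the 18820 genes, placed by its mean log2 level in C (horizontal axis) and its change in EDL, T minus C in log2 units (vertical axis), and genes that differed at an adjusted p below 0.01 are coloured by direction. The 2020 higher and 2189 lower genes fill both sides, most of them between the dotted lines at 1 and -1 (2-fold), and few lie at the dim end.

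The 8 genes of smallest adjusted p on each side included Osmr and Stat3, of interleukin-6 family signalling, among those that rose. Values are given as the lowest, the median and the highest of 6 log2 levels. Osmr, the receptor chain for oncostatin M, was at 8.09, 8.57 and 8.79 in T and 6.54, 6.66 and 6.78 in C, which is 1.85 ± 0.10 on the log2 scale (fold change ± SE, adjusted p = 2.5e-11). Stat3, the transcription factor downstream of these receptors, was at 9.49, 9.76 and 9.97 in T and 7.99, 8.40 and 8.46 in C (1.39 ± 0.10, adjusted p = 3.2e-09). For both genes every T value lay above every C value. The other genes of smallest p that rose were Serpina3n, a secreted protease inhibitor (40.9-fold), the interferon-inducible p200 family members Ifi205 (5.16-fold) and Ifi207 (4.14-fold), Tmem176b (2.87-fold), the guanine deaminase Gda (3.14-fold) and Bcl3, a co-regulator of NF-kB (3.01-fold). None of these 6 overlapped between the groups. Cross-hybridisation between the near-identical Ifi205 and Ifi207 was not tested.

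Of the genes of smallest p that fell, Kcng4, a modifier subunit of voltage-gated potassium channels, was at 3.31, 3.65 and 4.97 in T and 6.68, 6.83 and 7.30 in C, a log2 fold change of -3.05 ± 0.30 (adjusted p = 2.9e-07). Map3k7cl, a gene of unsettled function, was at 5.61, 5.77 and 6.85 in T and 7.87, 8.21 and 8.40 in C (-2.26 ± 0.21, adjusted p = 1.2e-07). Cacna2d4, a calcium channel subunit, was at 4.11, 4.49 and 4.56 in T and 5.43, 5.56 and 5.87 in C (-1.20 ± 0.12, adjusted p = 2.1e-07). In all 3 genes T lay below C without overlap, and T replicate 3 was the highest T array for Map3k7cl. Aimp2, a scaffold of the aminoacyl-tRNA synthetase complex, was at 7.24, 7.54 and 8.21 in T and 9.32, 9.58 and 9.70 in C (-1.95 ± 0.20, adjusted p = 3.0e-07), again without overlap. The others were Nrep (-3.63), the kinase Map2k6, which activates p38 (-2.72), the phosphatase Dupd1 (-1.64) and Cmss1 (-1.48).

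Around Stat3, the receptors of the family did not move as one. Of 28 genes of the gp130 receptors and the JAK-STAT pathway, 8 were higher and 3 lower. Il6ra, which binds interleukin-6, was at 7.83, 9.20 and 9.40 in T and 5.47, 5.88 and 6.06 in C, an 8.72-fold rise (log2 3.12 ± 0.32, adjusted p = 3.5e-07). Socs3, a feedback inhibitor that Stat3 induces, was at 5.48, 5.79 and 6.13 in T and 4.16, 4.43 and 4.78 in C (1.32 ± 0.13, adjusted p = 3.5e-07). Neither gene overlapped, and T replicate 3 was the lowest T array for Il6ra. The interleukin-4 receptor Il4ra rose by 1.40. The 3 that fell were Cntfr, the binding chain for ciliary neurotrophic factor (-2.001 ± 0.38, adjusted p = 2.2e-04), the receptor chain Lifr (-0.40) and the kinase Jak1 (-0.31).

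The TNF, interleukin-1 and NF-kB group held 13 genes that were higher and 1 that was lower of 24. The interleukin-1 receptor Il1r1 rose by 1.25, the TNF receptor Tnfrsf1a by 0.72, the death receptor Fas by 1.23 and the inhibitor Nfkbia by 0.97. Tnfrsf12a, the receptor for TWEAK, rose by 1.73 with overlap between the groups. The gene that fell was Tnfaip3, which ends NF-kB signalling (-0.65 ± 0.12, adjusted p = 1.8e-04). Among 21 acute phase genes 8 were higher and 0 lower; besides Serpina3n and the iron-sequestering Lcn2 they included Lrg1 (1.93) and haptoglobin, Hp (1.62).

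Of 25 transcription factors of the early response 16 were higher and none lower, with a median of 0.94. Cebpd, a C/EBP factor of the acute phase response, was at 7.83, 8.57 and 8.85 in T and 4.81, 5.49 and 5.84 in C (3.03 ± 0.32, adjusted p = 6.6e-07). Its relative Cebpb rose by 1.37, the stress factors Atf3 and Maff by 2.23 and 2.34, Myc by 1.44 and the anti-proliferative Btg2 by 2.10. Of 26 genes of the glucocorticoid receptor and its targets 14 were higher and 1 lower, with a median of 0.83. Fkbp5, a chaperone that glucocorticoids induce, was at 8.98, 10.00 and 10.3 in T and 6.74, 7.08 and 7.86 in C (2.70 ± 0.30, adjusted p = 1.2e-06), so that the groups lay apart. Klf15 rose by 1.55, Tsc22d3 did not pass (0.33 ± 0.12, adjusted p = 0.040), and the gene that fell was the mineralocorticoid receptor Nr3c2 (-0.80). Cebpb and Cebpd are counted in both groups.

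Mt1, a metallothionein that binds zinc and copper, was at 11.8, 12.8 and 12.9 in T and 9.65, 9.77 and 10.7 in C (2.73 ± 0.27, adjusted p = 2.4e-07). The groups did not overlap, T replicate 3 was the lowest T array and C replicate 2 the highest C array. Over 32 genes of metallothioneins, zinc and iron, 8 were higher and 7 lower. Its relative Mt2 rose by 3.95 ± 0.42 (adjusted p = 6.6e-07), the largest change of the list, and the zinc and iron importer Slc39a14 rose by 3.26 ± 0.48 (adjusted p = 1.7e-05). Tfrc, the transferrin receptor that brings iron into cells, was at 4.52, 5.55 and 5.88 in T and 7.88, 8.23 and 8.89 in C (-2.98 ± 0.32, adjusted p = 6.9e-07), far apart in the other direction. The ferrireductase Steap3, which works in the same endosomes, fell by 0.96.

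**Figure D2:**
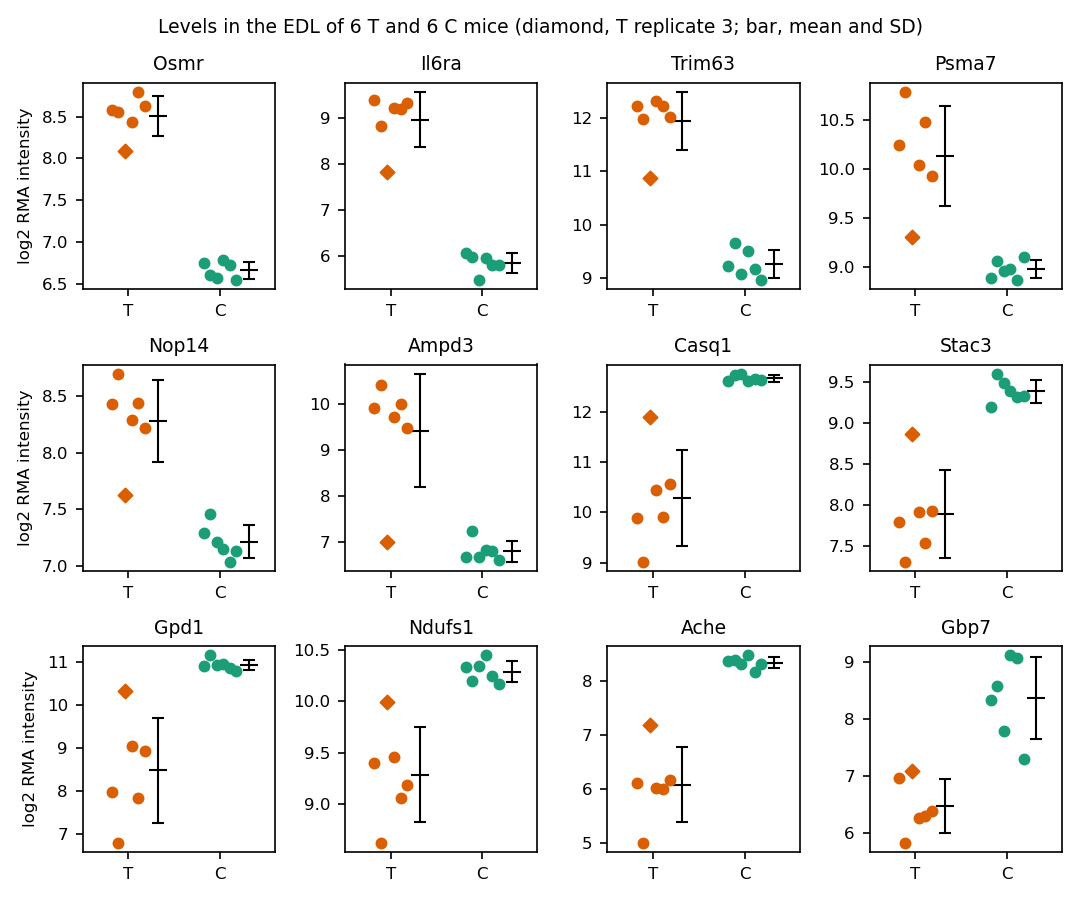
Log2 level of 12 genes in the EDL of 6 T mice (left in each panel) and 6 C mice (right), 1 point per mouse, with a bar for the mean and SD and a diamond for T replicate 3. The T and C points do not overlap in any panel but that of Ampd3, and T replicate 3 is the T point nearest to C in all 12 panels.

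For 3 of the genes that rose, the sequence of the 250 bases before the annotated start (mouse build GRCm38.p6, from RefSeq, 5′ to 3′ on the gene's strand) is shown because it holds the letters of elements of the pathways above. These genes were chosen after their values and letters were seen. Capitals mark, in Trim63, a glucocorticoid response element and, next to it, the reverse complement of the FoxO element GTAAACA; in Socs3, the STAT element TTCNNNGAA; in Mt1, the glucocorticoid response element and, closer to the start, the metal response element TGCACNC or TGCGCNC. No match overlaps another.
Trim63, chr4:134314870-134315119, plus strand: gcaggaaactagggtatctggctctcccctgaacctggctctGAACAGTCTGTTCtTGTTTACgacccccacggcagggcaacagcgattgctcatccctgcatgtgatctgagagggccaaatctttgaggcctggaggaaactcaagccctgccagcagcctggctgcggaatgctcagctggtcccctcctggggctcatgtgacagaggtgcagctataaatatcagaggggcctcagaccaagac
Socs3, chr11:117969367-117969616, minus strand: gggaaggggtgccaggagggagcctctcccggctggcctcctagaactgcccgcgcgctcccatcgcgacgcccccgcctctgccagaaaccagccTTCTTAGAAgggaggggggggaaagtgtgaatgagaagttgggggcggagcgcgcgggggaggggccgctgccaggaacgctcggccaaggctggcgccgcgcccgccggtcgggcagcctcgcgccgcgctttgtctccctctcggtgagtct
Mt1, chr8:94178839-94179088, plus strand: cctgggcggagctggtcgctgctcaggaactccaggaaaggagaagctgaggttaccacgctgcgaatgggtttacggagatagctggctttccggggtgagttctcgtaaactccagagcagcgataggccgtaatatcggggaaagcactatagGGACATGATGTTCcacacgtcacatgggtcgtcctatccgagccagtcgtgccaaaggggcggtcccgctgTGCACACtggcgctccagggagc
Each motif was searched on both strands in the 14749 genes with such a window. The FoxO letters stood in 2.2% of windows of genes called higher, 2.01% of those called lower and 2.66% of all. The STAT letters stood in 6.41% of the higher, 5.96% of the lower and 6.75% of all windows, and the glucocorticoid element in 0.488%, 0.287% and 0.346% in the same order. The metal response letters stood in 30.0%, 29.9% and 25.6%. The MEF2 element, bound by a family of muscle factors of which Mef2c fell by 1.39, stood in 1.83% of the higher, 4.36% of the lower and 3.12% of all windows. A link between Mef2c and these windows was not tested. Further motifs were searched, and some had contrasts too. In the same order, the E-box letters CACGTG stood in 9.65%, 7.63% and 7.09%. The AP-1 letters TGANTCA stood in 5.25%, 3.67% and 5.93%, and the ERR letters TNAAGGTCA in 0.305%, 0.745% and 0.909%. These shares were not tested, and a match is a description of letters in a short window.

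Among genes of protein breakdown most of the standard proteasome and the ligases Trim63 and Fbxo32 rose, whereas other ligases and ubiquitin enzymes were divided and most of the immune form of the proteasome fell. Trim63 (MuRF1), a ubiquitin ligase of contractile proteins, was at 10.9, 12.1 and 12.3 in T and 8.97, 9.21 and 9.65 in C, a 6.31-fold rise (log2 2.66 ± 0.33, adjusted p = 4.0e-06). Fbxo32 (atrogin-1) was at 11.7, 12.2 and 12.2 in T and 9.30, 9.96 and 10.4 in C, 4.63-fold (2.21 ± 0.26, adjusted p = 2.4e-06). Both rose in all 6 T arrays beyond the C range. Over 40 ligases linked to atrophy, however, 12 were higher and 7 lower, and the median was 0.02. The others that rose included Fbxo31 (1.78) and Klhl38 (1.20), and those that fell included Asb18 (-1.77) and Wwp1 (-0.81). Among 24 genes of ubiquitin, E1 and E2 enzymes 5 were higher and 5 lower (3 lower without T replicate 2 or 4); the chain-elongating factor Ube4a rose by 1.54 and the conjugating enzymes Ube2n and Ube2r2 fell by 0.60 and 0.43.

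Of the 13 measured subunits of the 20S proteasome core 9 were higher and 0 lower (69.2%, median 0.50), and of the 20 measured subunits of the 19S cap 15 were higher and 0 lower (75%, median 0.53). Psma7, a core subunit, was at 9.31, 10.1 and 10.8 in T and 8.87, 8.97 and 9.10 in C (1.15 ± 0.19, adjusted p = 4.8e-05). Psmd4, the ubiquitin receptor of the cap, rose by 1.07, Psmd8 by 1.07 and Psmd11 by 0.97. These subunits are among the largest rises. Over all members the changes ran from -0.04 to 1.15 in the core and from -0.25 to 1.07 in the cap. In 1 cap subunit, which did not pass, all T arrays lay below all C arrays. In the immunoproteasome, whose subunits interferon induces, 4 of 5 fell and none rose (median -0.76). Psme1, a subunit of its activator, was at 7.49, 7.72 and 8.53 in T and 8.72, 8.84 and 9.08 in C (-1.06 ± 0.14, adjusted p = 7.1e-06). The catalytic subunits Psmb8, Psmb9 and Psmb10 fell by 0.87, 0.76 and 0.68. The direction was thus opposite within one complex family. Nfe2l1, the transcription factor that drives standard proteasome genes, did not pass (0.081 ± 0.071, adjusted p = 0.45), while Nploc4 and Zfand5, which help bring substrates to the proteasome, rose by 1.26 and 0.74.

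In autophagy, 11 of 30 genes of autophagosome formation were higher and 5 lower, the lower count being 2 or 3 without T replicate 1, 2 or 4 or any one of 5 C arrays. The 2 largest rises were in the membrane-bound tags of the forming vesicle, Gabarapl1 (1.70 ± 0.30, adjusted p = 8.8e-05) and Map1lc3b (1.13 ± 0.15, adjusted p = 5.8e-06). Of 12 cargo receptors and mitophagy genes 6 were higher, among them Bnip3 (1.22) and Sqstm1 (0.89), and the mitophagy receptor Fundc1 was the only one lower (-0.67). Of 33 lysosomal genes 12 were higher and 3 lower, with the cholesterol exporter Npc1 at 2.02, the protease Ctsl at 1.88, the glycogen-degrading Gaa at 1.38 and the proton pump subunit Atp6v1h at 1.25. A pair of related genes parted: Trp53inp1 rose by 1.51 and Trp53inp2, which recruits autophagy proteins, fell by 1.11.

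The growth signalling genes included rises on the receptor side, in kinases of the pathway itself and on the brake side. Foxo1, which insulin signalling holds out of the nucleus, was at 7.79, 9.52 and 9.67 in T and 6.87, 7.11 and 7.35 in C (2.15 ± 0.26, adjusted p = 2.9e-06). Foxo3 rose by 1.21 and Foxo6 fell by 0.85. Eif4ebp1, which blocks cap-dependent translation, was at 8.49, 9.67 and 9.86 in T and 6.93, 7.16 and 7.41 in C (2.31 ± 0.25, adjusted p = 6.6e-07). Neither gene overlapped, and T replicate 3 was the lowest T array in both. Over 35 genes of the PI3K, AKT and mTOR pathway 14 were higher and 6 lower (median 0.31). The mTOR brakes Ddit4 and Sesn1 rose by 3.42 and 2.50 and the regulatory subunit Pik3r1 by 1.28, whereas the brakes Sesn3, Deptor and Ddit4l fell by 0.91, 0.87 and 1.37. The cell cycle inhibitor Cdkn1a rose by 2.84 ± 0.31 (adjusted p = 9.6e-07).

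Of 17 genes of insulin and IGF ligands, receptors and binding proteins 5 were higher and 2 lower. The receptors Igf1r and Insr rose by 1.36 and 0.74, the adaptor Irs2 by 1.77 and the binding protein Igfbp3 by 2.07. Igfbp5, a binding protein abundant in muscle, was at 6.91, 7.90 and 9.52 in T and 10.0, 10.2 and 10.3 in C (-2.24 ± 0.36, adjusted p = 3.7e-05). T lay below C throughout. The receptor inhibitor Grb14 was the other that fell (-1.91), and Igf1 itself did not pass (-0.43 ± 0.21, adjusted p = 0.13).

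Myostatin, Mstn, which limits muscle growth, was at 8.89, 9.11 and 9.93 in T and 7.96, 8.16 and 8.92 in C (1.05 ± 0.19, adjusted p = 1.6e-04). The ranges overlapped through C replicate 2, the highest C array. In its branch 3 genes were higher and 5 lower of 14 (3 lower without C replicate 3): Inhbb, a chain of activin B, rose by 1.04 and the receptor Acvr1b by 0.84, while Inha, the inhibin chain, fell by 1.34 and the related ligand Gdf11 by 0.64. The myostatin receptor Acvr2b was at the edge of the threshold (-0.48 ± 0.14, adjusted p = 0.0092), and leaving out any one of 9 of the 12 arrays moved it past 0.01, up to 0.0325. Inhba, the chain of activin A, did not pass (-0.37 ± 0.14, adjusted p = 0.042).

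Of 24 Wnt genes 8 fell and none rose (1 rose without T replicate 2), among them the Wnt inhibitors Frzb (-2.39 ± 0.32, adjusted p = 7.4e-06) and Dkk3 (-1.79) and the ligand Wnt5a (-1.61). Of 34 muscle-secreted factors, growth factors and their receptors 15 fell and 1 rose, with the apelin receptor Aplnr at -1.72, Ostn (musclin) at -1.71 and Il15 at -1.65; the 1 that rose, the neurotrophic factor Gdnf, did not pass without T replicate 1 or without T replicate 5. The growth factor Tgfb2 fell by 1.46.

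In the contractile apparatus the heavy chains moved little while several smaller fast proteins fell. Myh4, the myosin heavy chain of the fastest fibres, was at 12.4, 12.7 and 12.9 in T and 12.8, 12.9 and 13.0 in C, and its change of -0.24 ± 0.070 did not pass (adjusted p = 0.011). The levels of Myh1, Myh2 and Myh7, the other adult heavy chains, differed by -0.0087 (adjusted p = 0.96), -0.15 (adjusted p = 0.64) and -0.41 (adjusted p = 0.74), and the skeletal actin Acta1 by -0.13 ± 0.052 (adjusted p = 0.054). These probe sets are among the brightest of the array, and how near they were to saturation was not tested. Of 18 fast fibre isoforms 11 were lower and 1, Mylk2, higher (61.1% and 5.56%, median -0.40), and the call of Mylk2 was lost without any one of 5 of the 12 arrays. Pvalb, the calcium buffer that lets fast fibres relax, was at 10.3, 11.5 and 12.3 in T and 12.5, 12.6 and 12.7 in C (-1.25 ± 0.24, adjusted p = 2.5e-04). All T values lay below C. Mybpc2, the fast myosin binding protein, fell by 0.80, the fast-fibre transcription factor Tbx15 by 0.76, Myoz1 by 0.64 and Actn3 by 0.45. Pvalb, Mybpc2 and Actn3 did not pass when heart and SOL arrays shared the estimate of the spread, nor did Actn3 after a second quantile normalization.

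Of 12 genes listed as slow fibre isoforms 3 were higher and none lower (25%, median -0.08). Among all genes above the median level 19.7% were higher. The 3 were Ankrd2, a stretch-responsive protein (1.82 ± 0.33, adjusted p = 1.3e-04), the Z-disc protein Myoz2 (0.86) and Myh14, which is a non-muscle myosin. None of the 8 slow fibre markers passed (median -0.21). Of 36 filament, giant and Z-disc proteins 7 were higher and 14 lower. The largest rises were in Xirp1 (1.69), Lmod2 (1.55), Csrp3 (1.46) and Flnc (1.18). The largest falls were those of Ky, a Z-disc protein (-4.13 ± 0.54, adjusted p = 5.3e-06), and Myoz3 (-2.65), neither overlapping between the groups. Actc1, the cardiac actin that skeletal muscle also makes, was at 6.53, 7.27 and 7.88 in T and 8.90, 9.19 and 10.4 in C (-2.16 ± 0.29, adjusted p = 7.1e-06), lower in every T array, with C replicate 2 the highest C array. The giant protein titin, Ttn, fell by 0.40, and 1 of its 2 probe sets passed on its own. The assembly factors Smyd1 and Trim55 fell by 0.94 and 1.04 and Klhl30 rose by 1.05. Itgb1bp2 (melusin), which binds integrin at the costamere, fell by 2.13.

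The calcium release apparatus was one of the groups with the most falls. Of 21 genes of calcium release and storage 15 were lower and 2 higher (71.4% and 9.52%, median -0.67). Casq1, the calcium store protein of the fast fibre, was at 9.02, 10.2 and 11.9 in T and 12.6, 12.6 and 12.8 in C, a 5.20-fold lower level (-2.38 ± 0.34, adjusted p = 1.1e-05). Stac3, which couples the calcium channel of the membrane to the release channel, was at 7.30, 7.85 and 8.87 in T and 9.19, 9.36 and 9.60 in C (-1.50 ± 0.21, adjusted p = 1.0e-05). For both genes all T arrays lay below all C arrays. Sypl2 (mitsugumin 29), a triad protein, fell by 2.49, the junction-forming Jph2 by 1.63, and the voltage sensor Cacna1s fell by 0.998. The release channel Ryr1 changed little (-0.29 ± 0.080, adjusted p = 0.0059) and lost its call without any one of 6 of the 12 arrays. The genes that rose were the counter-ion channel Tmem38b (1.01) and the channel subunit Cacng1 (0.51).

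Of 23 calcium pump, inhibitor and signalling genes 12 were lower and 0 higher. The calmodulin genes Calm3 and Calm2 fell by 1.64 and 1.41 and the exchanger Slc8a3 by 1.37. The fast calcium pump Atp2a1 and its inhibitor Sln did not pass, with changes of -0.033 (adjusted p = 0.62) and 0.082 (adjusted p = 0.78). In the surface membrane, 9 of 22 channels and pumps were lower and 3 higher. The chloride channel Clcn1, which steadies the resting membrane, fell by 1.67 ± 0.28 (SE; adjusted p = 5.8e-05), the sodium pump subunit Atp1b2 by 1.82 and the sodium channel subunit Scn4b by 1.49. The water channel Aqp4 fell by 2.91 ± 0.40 (adjusted p = 8.2e-06), the largest fall of this list, and the potassium channel subunit Abcc8 and the channel Kcna5 rose by 1.20 and 0.66.

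At the nerve-muscle junction 6 of 18 genes were lower and none higher (1 higher without T replicate 3). Ache, the enzyme that clears acetylcholine from the synapse, was at 5.00, 6.07 and 7.18 in T and 8.16, 8.34 and 8.48 in C (-2.26 ± 0.26, adjusted p = 1.7e-06). Every T value lay below every C value. The adult receptor subunit Chrne fell by 1.26, the anchor of the enzyme, Colq, by 0.75 and the agrin receptor Lrp4 by 0.69. The receptor subunit Chrna1 (-0.26 ± 0.10, adjusted p = 0.049) and the synapse organiser Musk (0.50 ± 0.19, adjusted p = 0.048) did not pass. Of 13 genes known to respond to denervation 5 were higher and 1 lower. Runx1 rose by 1.57, Gadd45a by 1.41 and Myog by 1.04, and Hdac9, a repressor that denervation lowers in mice, fell by 1.099. The satellite cell factor Pax7 did not pass (-0.022, adjusted p = 0.91), nor did Myod1 (-0.94, adjusted p = 0.039).

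**Figure D3:**
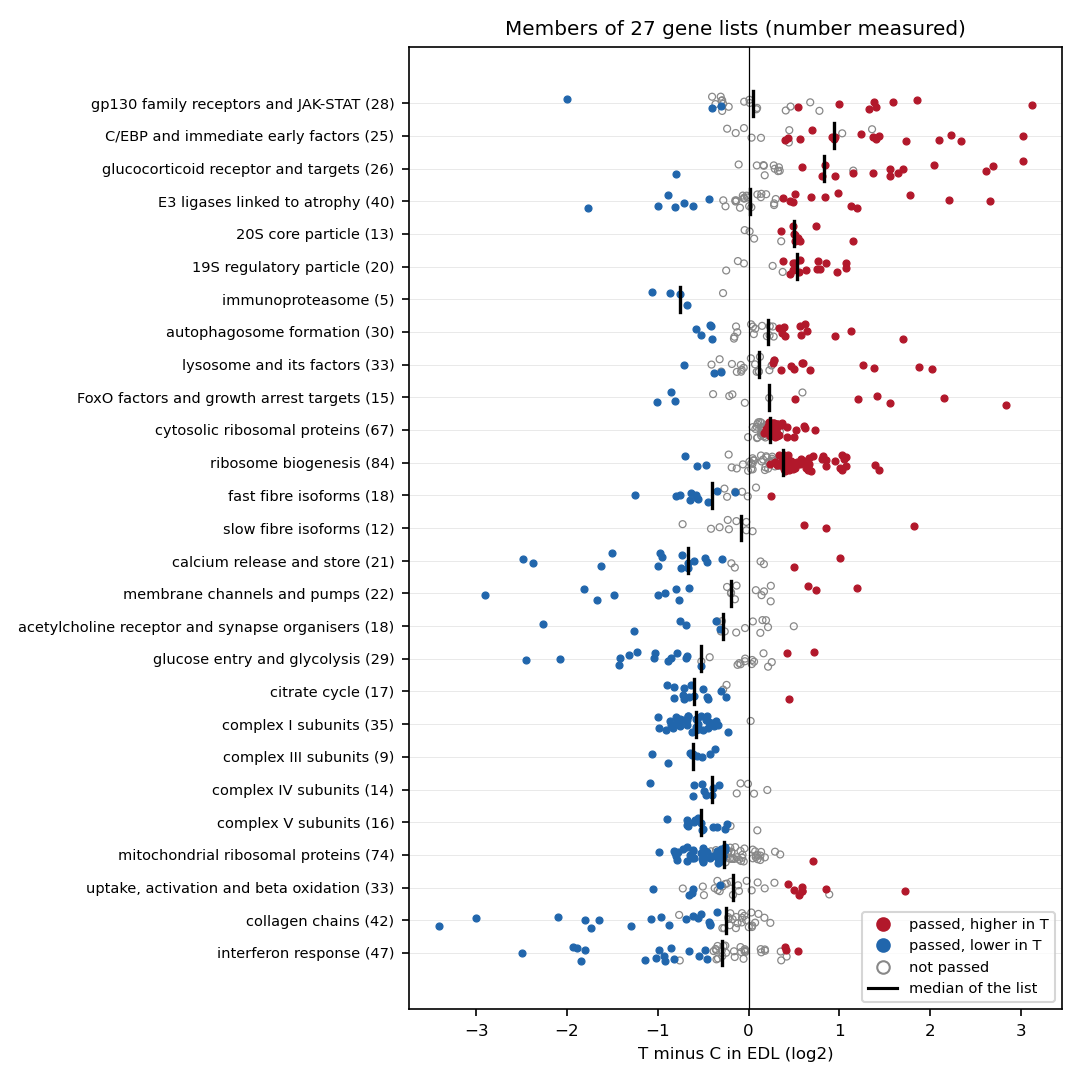
Change in EDL (T minus C, log2) of every measured member of 27 gene lists, 1 point per gene, filled where it passed (red higher, blue lower in T) and open where it did not, with a black line at the median of the list. Complex I (median -0.58), the citrate cycle (-0.60) and calcium release (-0.67) lie to the left of 0, and the proteasome core and cap (0.50 and 0.53) and the early response factors (0.94) to the right.

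Of 29 genes of glucose entry and glycolysis 14 were lower (48.3%) and 2 higher, with a median of -0.52. Gpd1, which carries reducing power from glycolysis towards the mitochondrion, was at 6.79, 8.45 and 10.3 in T and 10.8, 10.9 and 11.2 in C (-2.45 ± 0.37, adjusted p = 2.1e-05). Pgm1, which joins glycogen to glycolysis, was at 7.39, 8.79 and 10.3 in T and 10.6, 10.9 and 11.1 in C (-2.10 ± 0.31, adjusted p = 1.9e-05). Both lay below C in all T arrays, 5.46-fold and 4.30-fold lower on average. Bpgm fell by 2.08, the muscle mutase Pgam2 by 1.43, lactate dehydrogenase Ldha by 1.04, the lactate exporter Slc16a3 by 1.42 and the rate-setting Pfkm by 0.79. The insulin-responsive transporter Slc2a4 (0.040 ± 0.10, adjusted p = 0.83) and Hk2 (-0.52 ± 0.18, adjusted p = 0.026) did not pass. The 2 that were higher were Slc2a1 (0.72 ± 0.19, adjusted p = 0.0036) and Pfkp; neither was called in a fit of the 12 arrays alone or without T replicate 5 or T replicate 6.

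Of 20 glycogen genes 6 were lower and 3 higher. The phosphorylase kinase subunits Phkg1 and Phka1, which switch glycogen breakdown on, fell by 1.64 and 1.27 and phosphorylase itself, Pygm, by 0.39, a call that was absent after a second quantile normalization. Ppp1r3c, which targets a phosphatase to glycogen, rose by 1.57 ± 0.39 (adjusted p = 0.0024), and glycogen synthase Gys1 did not pass (0.063, adjusted p = 0.68).

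In the respiratory chain the falls were small and covered nearly all of complexes I and III. Of 35 measured subunits of complex I 34 were lower (97.1%), of 9 complex III genes 9, of 14 complex IV subunits 9 and of 16 complex V genes 14, with 0 higher in any of these 4 groups. The medians were -0.58, -0.61, -0.40 and -0.52 in the same order. Ndufs1, the largest subunit of complex I, was at 8.62, 9.29 and 9.99 in T and 10.2, 10.3 and 10.4 in C (-1.001 ± 0.15, adjusted p = 2.6e-05). T lay below C without overlap, as it did in 28 of the 35 genes of this complex. Cyc1 of complex III fell by 1.06, the muscle isoform Cox7a1 of complex IV by 1.08 and Atp5g3 of complex V by 0.89. Complexes IV and V each had 1 member called higher after a second quantile normalization. Of 17 citrate cycle genes 14 were lower and 1 higher (82.4% and 5.88%, median -0.60), the higher one being Idh2, whose call was lost without any one of 8 of the 12 arrays; among the lower ones were Idh3a at -0.89, Sdhd at -0.82 and citrate synthase, Cs, at -0.63. In the step before the cycle 8 of 13 genes were lower and 0 higher (1 higher without T replicate 2 or C replicate 2 or 4): Dlat, the core of pyruvate dehydrogenase, fell by 1.14 and its activating phosphatase Pdp1 by 1.44, while the inhibiting kinase Pdk4 did not pass (1.15 ± 0.35, adjusted p = 0.012). Of 27 genes of mitochondrial carriers and energy transfer 17 were lower and 1 higher (1 to 3 higher with 1 array left out). The mitochondrial creatine kinase Ckmt2 fell by 1.23.

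The regulators of these genes moved in both directions, 7 higher and 9 lower of 30. Prkag3, the skeletal muscle subunit of AMP-activated kinase, was at 5.82, 5.99 and 7.23 in T and 8.18, 8.50 and 8.91 in C (-2.28 ± 0.28, adjusted p = 3.6e-06). All T arrays lay below C. Prkab2, its partner subunit, fell by 1.29 and the catalytic Prkaa2 did not pass (0.0092, adjusted p = 0.95). Ppargc1a (PGC-1α), a co-activator of mitochondrial genes, was at 8.34, 9.29 and 9.93 in T and 8.46, 8.59 and 8.89 in C, overlapping, and was higher by 0.67 ± 0.18 (adjusted p = 0.0065); its call was lost without any one of 9 of the 12 arrays. Its partner Esrra fell by 0.71, the retinoid receptor Rxrg fell by 1.80 and the nuclear receptor Nr4a3 and the deacetylase Sirt1 rose by 1.72 and 0.73.

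Lipid genes were divided. Of 33 genes of uptake, activation and beta oxidation 8 were higher and 5 lower, and of 30 genes of lipolysis, droplets and synthesis 5 were higher and 6 lower; without T replicate 3 the count of 5 lower was 8 and that of 5 higher was 9. Pnpla2, the first lipase of the droplet, rose by 1.12 ± 0.15 (adjusted p = 8.9e-06), its inhibitor G0s2 fell by 1.58, the droplet coat protein Plin4 rose by 1.37 and Gpam, the first enzyme of triglyceride synthesis, fell by 1.82. Acaa2, of the last step of beta oxidation, fell by 1.05. The thioesterase Acot1 rose by 1.72, Acacb, which limits entry of fatty acids into mitochondria, by 0.86 and the transporter Cd36 by 0.59.

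The purine nucleotide cycle was split between isoforms. Ampd3, the erythrocyte-type AMP deaminase, was at 7.00, 9.82 and 10.4 in T and 6.62, 6.75 and 7.24 in C (2.62 ± 0.43, adjusted p = 4.8e-05), and its ranges met only because T replicate 3 lay below C replicate 2. Ampd1, the AMP deaminase of skeletal muscle, was at 9.60, 10.00 and 11.2 in T and 11.7, 11.9 and 12.1 in C (-1.73 ± 0.22, adjusted p = 4.3e-06), without overlap. The AMP-cleaving Nt5c1a fell by 2.07, adenosine kinase Adk by 0.98 and adenylate kinase Ak1 by 1.16, and the purine-degrading Xdh rose by 1.04. Of 18 genes of this group 6 were higher and 6 lower. In polyamine metabolism Smox, spermine oxidase, was at 6.70, 6.85 and 7.30 in T and 8.02, 8.34 and 8.70 in C (-1.45 ± 0.16, adjusted p = 1.2e-06), below C throughout; spermine synthase Sms fell by 0.71 and Sat1, which acetylates polyamines for export, rose by 1.45.

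Among translation genes, those of the cytosolic machinery that passed were mostly higher and those of the mitochondrial ribosome mostly lower. Of 84 ribosome biogenesis genes 48 were higher (57.1%) and 3 lower, with a median of 0.38. Nop14, a factor of the small subunit, was at 7.62, 8.36 and 8.70 in T and 7.04, 7.18 and 7.46 in C (1.07 ± 0.15, adjusted p = 1.2e-05). The RNA helicase Ddx56 rose by 1.40 and Utp11 by 1.07, and Dkc1, which modifies ribosomal RNA, was one of the 3 that fell (-0.70). Of 67 cytosolic ribosomal proteins 36 were higher and 0 lower (53.7%, median 0.23), led by Rpl3 (0.73), Rps27 (0.62) and Rps20 (0.61). These rises were below 2-fold in every member. Of 49 initiation and elongation factors 20 were higher and 2 lower; 12 were higher without T replicate 2 and 13 without T replicate 5, and 4 were lower without T replicate 3. The initiation factors Eif1a and Eif3a rose by 0.92 and 0.82, the helicase Eif4a1 by 0.67, and the kinase Eif2ak2 and the cap-binding Eif4e fell by 0.72 and 0.70. Of 74 mitochondrial ribosomal proteins 37 were lower and 1 higher (median -0.27), with Mrpl19 at -0.99, Mrpl46 at -0.81 and Mrpl48 at -0.80; the 1 that rose was Mrpl41 (0.71), joined by 1 other without T replicate 3.

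Of 28 genes of amino acid transport and glutamine 9 were higher and 4 lower. Slc7a2, a carrier of cationic amino acids, was at 8.54, 9.25 and 9.92 in T and 7.14, 7.71 and 8.31 in C (1.54 ± 0.29, adjusted p = 2.3e-04), above C without overlap. Slc7a8, a carrier of large neutral amino acids, rose by 2.39, Slc38a2 by 1.30 and glutamine synthetase, Glul, by 0.84, and the glutamine carrier Slc38a3 fell by 0.92. The stress factor Atf4 rose by 0.90 and its target Asns by 1.07; Psph, of serine synthesis, fell by 1.01. In the antioxidant group, 14 of 43 were higher and 10 lower: Hmox1 rose by 1.998 and Gclm, of glutathione synthesis, by 1.87, while Gsta4 fell by 1.64 and mitochondrial Sod2 by 0.81.

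Of 42 collagen chains 18 were lower and none higher (42.9%, median -0.25). Col1a2, a chain of the main fibrillar collagen, was at 6.26, 6.77 and 9.18 in T and 9.51, 9.95 and 11.0 in C (-3.002 ± 0.43, adjusted p = 1.2e-05). T replicate 3 was the highest T array and still lay below C. Col1a1, its partner chain, fell by 3.41, Col3a1 by 2.10 and Col6a3 by 1.81. Of 45 glycoproteins and proteoglycans 12 were lower and 3 higher; Kera (keratocan), which is also one of the tendon cell markers, fell by 3.26, Postn by 1.94, Lum by 1.83 and Sparc by 1.13, while the elastic fibre genes Eln and Fbln5 rose by 0.76 and 0.80. Of 37 genes of collagen processing and matrix enzymes 8 were higher and 6 lower (median 0.097), with the proteases Adamts9 and Adamts4 higher by 1.66 and 1.05, the crosslinking enzyme Lox higher by 1.55 and Pcolce, which aids procollagen cleavage, at -1.18. Markers of fibroblasts, of which Lum is one, averaged 6.23 to 7.43 in T and 7.10 to 7.49 in C (4 of 8 lower), next to the tendon cell values above; their part in the matrix result was not tested.

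Interferon response genes were lower more often than higher, 16 against 3 of 47 (median -0.30); the 3 were Trim25, Oas2 and Ifngr1, and 1 was left without T replicate 1, 4 or 5 or C replicate 2. Gbp7, a guanylate-binding protein that interferon induces, was at 5.83, 6.35 and 7.08 in T and 7.30, 8.46 and 9.11 in C (-1.89 ± 0.27, adjusted p = 1.4e-05), without overlap. Gbp4 fell by 2.49 and Gbp3 by 1.94; cross-hybridisation within this family was not tested. The p200 genes Ifi205 and Ifi207 given above went the other way. Of 38 complement and coagulation genes 10 were higher and 3 lower, with Serpinf1 at -1.61, C1qc at 1.04 and C1qb at 0.81. Of 52 chemokines and receptors 7 were higher and 2, Cxcl12 and Ccl25, lower (1 to 2 lower with 1 array left out). Those that rose included Cxcl13, which attracts B cells (4.16 ± 0.44, adjusted p = 5.6e-07), Ccl6 (1.67) and the neutrophil receptor Cxcr2 (1.02). Macrophage and neutrophil markers moved with these genes, as given above, and their part was not tested. Of 9 T and NK cell, 5 B cell and 6 mast cell markers none passed. Above the median level lay 0 of the T and NK cell and 0 of the B cell markers. Of the mast cell markers 1 lay above it in T and 2 in C. Few genes of any kind passed below that level, so these counts cannot show whether such cells changed.

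The circadian clock was another group with a high share, 9 higher and 6 lower of 20. Arntl (Bmal1), the core activator, was at 6.36, 7.07 and 8.44 in T and 4.52, 5.25 and 5.61 in C (2.06 ± 0.33, adjusted p = 3.8e-05). All T arrays lay above C. Its alternative partner Npas2 rose by 1.54, Nfil3 by 2.20 and Rora by 1.47, while the repressors Bhlhe41 and Per3 fell by 2.24 and 1.08 and Per2 did not pass (-0.14, adjusted p = 0.51). The hour of collection of each mouse was not analysed here.

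The soleus (SOL), a slow muscle, was taken from the same mice, and the question of whether EDL departed from it was put to the difference between the muscles within each mouse. At an adjusted p below 0.01 in limma the tumour effect differed between EDL and SOL in 284 of 18820 genes (1.51%), in 166 of them (0.882%) with the more positive change in EDL and in 118 (0.627%) with the more negative. The count depends on single mice: it was 133 without T replicate 2 and 546 without T replicate 3, and 102 genes remained under each of the 12 omissions. Whether the muscles differ in the other genes is not settled by this test.

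Among genes with the more positive change in EDL, Vegfd, a growth factor of lymph vessels, was at 6.02, 8.27 and 8.67 in T and 5.15, 5.48 and 5.95 in C in EDL, a change of 2.42 ± 0.35, against 0.47 in SOL, a difference of 1.96 ± 0.31 (SE, n = 23 mice in the fit; adjusted p = 6.2e-04). Fbxo32 changed by 2.21 in EDL and 0.63 in SOL (difference 1.58 ± 0.23, adjusted p = 3.2e-04). Slc7a2 changed by 1.54 in EDL and -0.26 in SOL (difference 1.80 ± 0.25, adjusted p = 2.4e-04). For Il6ra the changes were 3.12 in EDL and 1.72 in SOL (difference 1.40 ± 0.21, adjusted p = 4.1e-04), and for Foxo1 2.15 in EDL and 1.13 in SOL (difference 1.02 ± 0.16, adjusted p = 6.0e-04). In SOL alone the ligase, the receptor and the transcription factor also passed (adjusted p = 0.0097, 1.6e-05 and 5.6e-05). Il6ra and Foxo1 lost the difference when the mouse was a random block (adjusted p = 0.0172 and 0.0308). Sox4, a developmental transcription factor, differed by 1.89 ± 0.33, the lysosomal reductase Ifi30 by 1.85 ± 0.34, the mitochondrial acetate-activating Acss1 by 1.89 ± 0.36, Zim1 by 2.02 ± 0.40 and the melanocortin receptor Mc5r by 1.94 ± 0.31; in EDL alone Mc5r did not pass (adjusted p = 0.020). Ucp3, a mitochondrial carrier, differed by 2.13 ± 0.40, with -0.066 in EDL (adjusted p = 0.92) and -2.19 in SOL, the larger change being in SOL, and it lost the difference with the mouse as a random block (adjusted p = 0.0491). Zim1 lost its call without any one of 7 of the 12 mice, and Acss1 and Ucp3 without either of 2 T mice.

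Among genes with the more negative change in EDL were several with a low level in control SOL. Gdap1, a protein of the mitochondrial outer membrane, was at 2.58, 2.81 and 3.97 in T and 5.45, 5.91 and 6.47 in C in EDL; its mean in SOL was 2.66 ± 0.11 in T and 3.01 ± 0.14 in C (SD, n = 6 each). The changes were -2.93 in EDL and -0.35 in SOL (difference -2.58 ± 0.35, adjusted p = 1.9e-04). Itga4, an integrin chain, was at 4.12, 4.89 and 6.62 in T and 7.47, 7.74 and 7.98 in C in EDL and averaged 4.54 ± 0.37 in T and 4.84 ± 0.43 in C in SOL (difference -2.36 ± 0.36, adjusted p = 5.1e-04). Pld5 (difference -2.43 ± 0.30) and Cyp4f39 (-2.33 ± 0.51) had SOL control means of 3.03 ± 0.27 and 3.41 ± 0.17. For Gdap1, Pld5 and Cyp4f39 these SOL means lay at the dim end, below the median level of all genes in EDL (4.96). Those of Itga4 also lay below that level, though less far. Of 1882 genes at 2.63 to 3.13 in EDL, 7 were higher and 10 lower in T. Of 1882 at 3.13 to 3.60, 12 were higher and 28 lower. At such levels a fall in SOL could hardly be seen. The part of a low SOL level in these differences, that of Itga4 included, was not tested. The fall in EDL brought Gdap1, Pld5 and Itga4 near to the SOL level, which for Gdap1 and Pld5 is a dim one. Ache also came near to its SOL level, with SOL means of 6.01 ± 0.34 in T and 6.26 ± 0.25 in C (difference -2.01 ± 0.23, adjusted p = 7.0e-05). So did Aimp2 (7.39 ± 0.26 and 7.49 ± 0.17, difference -1.86 ± 0.23) and Zfp503 (5.75 ± 0.35 and 5.62 ± 0.35, difference -1.87 ± 0.26). Smox fell in EDL by 1.45 and changed by 0.22 in SOL (difference -1.66 ± 0.20, adjusted p = 7.0e-05).

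Further genes also differed between the muscles. Ampd1 changed by -1.73 in EDL and -0.48 in SOL (difference -1.25 ± 0.21, adjusted p = 0.0011) and Stac3 by -1.50 in EDL and -0.31 in SOL (difference -1.19 ± 0.17, adjusted p = 3.1e-04). Mettl21c, a methyltransferase of slow fibres, changed by -1.45 in EDL and 0.50 in SOL (difference -1.94 ± 0.37, adjusted p = 0.0033). The Cyp4f39 difference lost its call without any one of 11 of the 12 mice and that of Mettl21c without any one of 4.

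**Figure D4:**
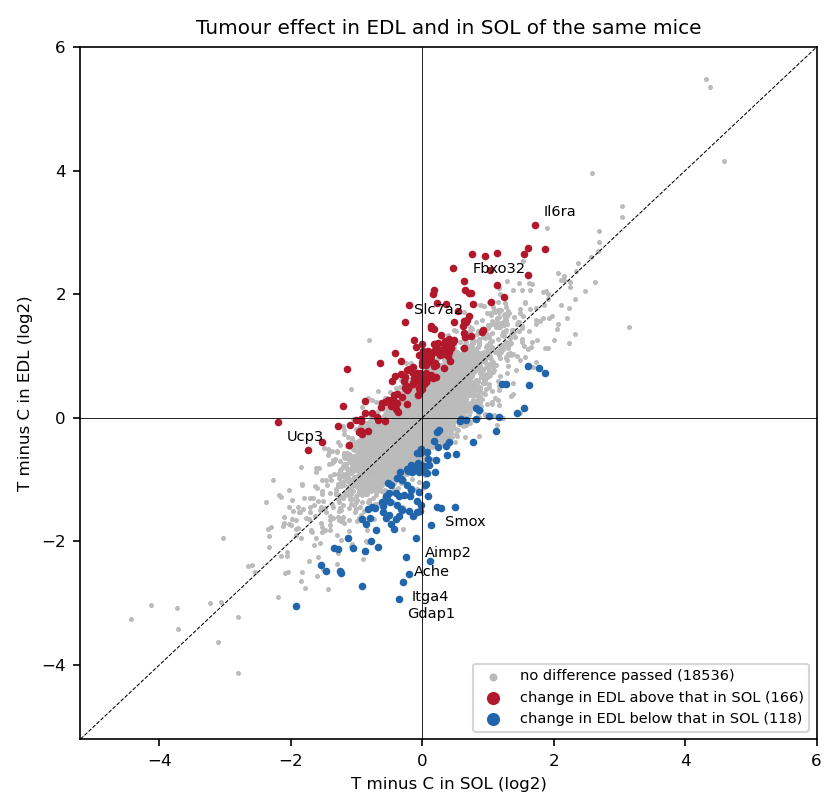
Tumour effect (T minus C, log2) in EDL (vertical axis) against that in SOL of the same mice (horizontal axis) for each of 18820 genes, with the genes whose effects differed at an adjusted p below 0.01 coloured (166 above and 118 below the dashed line of equal change). Gdap1, Itga4 and Ache lie far below 0 on the EDL axis with SOL changes between -0.35 and -0.25.

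The same comparison was available in mice that shared no animal with T and C, the vibrated tumour bearing mice (T + WBV, 5 EDL arrays) and vibrated controls (C + WBV, 6). Of the 4209 genes that differed between T and C, 4187 (99.5%) changed in the same direction there, against 75.9% of all genes, and 2061 (49.0%) passed on their own in that direction, with 2235 of 18820 genes passing in all (11.9%; 5.27% higher, 6.6% lower). The change was smaller in 90.1% of the 4209 genes, with a median ratio of 0.75. The 4209 genes were chosen by their change in the first comparison, so this ratio is a description. Body mass at day 19 reached both lower and higher in the T + WBV mice than in the T mice, and its part was not tested. Among the genes below 2-fold 99.4% kept their direction. Trim63 changed by 2.05 and Fbxo32 by 1.78 in the vibrated mice, Casq1 by -1.75, Ndufs1 by -0.77, Psma7 by 1.09 and Psme1 by -0.74. All 6 had the sign seen in the untrained mice.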

How the data were processed

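Total RNA of EDL, SOL and heart was hybridised to GeneChip Mouse Gene 1.1 ST arrays, 1 array per muscle. The deposited values are log2 intensities that the authors normalized by RMA (background correction, quantile normalization over arrays, in a version not given in the sources used here, 1 value per probe set). The methods name gene-based probe sets, whereas the deposited table holds 35556 array probe sets; 21218 had 1 symbol in the platform annotation and were averaged to 18820 genes. Array medians over these genes were 4.872 to 4.983 in the 12 T and C arrays; their number limits the precision.

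Groups were fitted with limma 3.58.1 in R 4.3.3 (lmFit, eBayes with trend) over all 23 EDL arrays, contrast T minus C, with Benjamini-Hochberg adjustment over 18820 genes and a threshold of 0.01. For EDL against SOL the within-mouse difference of 23 mice was fitted likewise. The fit was tested on simulated data. The 71 gene lists were described by counts and medians, and not every list is given here. Promoters were taken from RefSeq (GRCm38.p6). Genes named were taken from 514 that one rule allows, of which 287 are described with values: the core members of the lists, up to 4 called members with the largest change per direction in each list, the 8 of smallest adjusted p per direction, the 8 largest EDL and SOL differences per direction, and members of counts of 5 or fewer. Members and lists were chosen with earlier results of these data known. Other normalizations, variance models, sample sets, thresholds and omissions of 1 array were tried.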

Additional observations from a re-analysis of the deposited data

Results flagged for a closer look

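For the 42 genes whose group ranges are given, both groups of 6 were searched for a sample far from the rest (Dixon's ratio above its 95% critical value); 17 of 84 group checks were met, and chance meets about 1 in 20. T replicate 3 accounted for 11 of them. It was the lowest T array for Il6ra (7.83), Trim63 (10.9), Foxo1 (7.79), Eif4ebp1 (8.49), Ampd3 (7.00), Mt1 (11.8) and Vegfd (6.02), and the highest for Map3k7cl (6.85), Psme1 (8.53), Col1a2 (9.18) and Gdap1 (3.97). In each of these 11 genes it was the T array nearest to C. C replicate 2 was the highest C array for Mstn (8.92), Actc1 (10.4), Ampd3 (7.24) and Mt1 (10.7), C replicate 3 the highest for Kcng4 (7.30) and C replicate 6 the lowest for Stat3 (7.99).

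The tumour effect differed between EDL and SOL, by the test of the difference within mice, in the 22 genes described. The difference, EDL minus SOL on the log2 scale, was 2.13 for Ucp3, 2.02 for Zim1, 1.96 for Vegfd, 1.94 for Mc5r, 1.89 for Sox4, 1.89 for Acss1, 1.85 for Ifi30, 1.80 for Slc7a2, 1.58 for Fbxo32, 1.40 for Il6ra and 1.02 for Foxo1. It was -2.58 for Gdap1, -2.43 for Pld5, -2.36 for Itga4, -2.33 for Cyp4f39, -2.01 for Ache, -1.94 for Mettl21c, -1.87 for Zfp503, -1.86 for Aimp2, -1.66 for Smox, -1.25 for Ampd1 and -1.19 for Stac3.

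Of 14338 probe sets with no symbol or several symbols, which entered no comparison above, 914 (6.37%) also differed between T and C, 521 higher and 393 lower in T.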

How the results depend on the processing

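The 4209 genes were 3944 to 4449 with another variance prior, an intensity-based moderated statistic, the 12 arrays alone, all 58 arrays, a second quantile normalization, bright genes alone, single probe sets or a covariate for a label suffix; 5891 passed at an adjusted p below 0.05. Asking for 2-fold as well left 693 (344 higher, 349 lower). Leaving out 1 array gave 3614 (without T replicate 2) to 4813 (without T replicate 3), and 3261 genes (77.5%) remained in all 12 of these fits. Of the 4209 genes 2 turned sign after the second quantile normalization and 1 with single probe sets.

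The 284 differences between EDL and SOL became 917 (567 higher, 350 lower) at an adjusted p below 0.05. Leaving out 1 mouse gave 133 to 546 (72 to 325 higher, 57 to 221 lower), lowest without T replicate 2 and highest without T replicate 3, and 262 passed with the mouse as a random block, of which 180 were among the 284. The causes were not tested.

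With the replicate number as a block 3992 and 242 genes passed. The numbers do not pair the mice: same-numbered T and C arrays correlated by -0.0117 to 0.134 (mean 0.0684), and 1 of 6 T arrays correlated best with its own number.

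Near the threshold lay Acvr2b, Ryr1, Slc2a1 and Ppargc1a, as given with their values. Myh1, Myh2, Atp2a1, Sln, Pax7, Slc2a4, Prkaa2 and Ucp3, which did not pass, changed sign in at least 1 setting. Dim probe sets limit the rest: 4.41% passed below the median level.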
